A study of Mus musculus with 8 samples.

Results

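The enzymes and regulators of cholesterol and fatty acid synthesis were followed across 8 libraries of sorted mouse follicular helper T (Tfh) cells. The set was a list of 37 gene symbols, of 16735 genes present in both deposited count tables. It held 18 sterol enzymes, 6 genes of sterol sensing and transport, and 13 genes of fatty acid synthesis, desaturation, elongation and activation. All 37 were found in both tables, and all 37 passed the filter on low counts that left 14418 genes to test.

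Cholesterol is built from acetyl-CoA through mevalonate, isoprenoid diphosphates, squalene and lanosterol. The transcription factor SREBP-2 (gene Srebf2) is held in the endoplasmic reticulum by its escort SCAP and by the INSIG proteins while sterol is plentiful, and is released to switch on the sterol enzymes when sterol runs low; SREBP-1 (Srebf1) acts more on the fatty acid genes. Activated T cells are known to draw on both branches for new membrane, and products of the sterol branch have been described as ligands of RORγt, the transcription factor of Th17 cells.

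The study sorted cells from K/BxN mice, which develop arthritis without induction, carrying a Th17 fate-mapping reporter that leaves ZsGreen in cells with a Th17 history. CD4+ cells were enriched by negative selection, and Tfh cells were sorted as CD4+ TCRβ+ CD25− CXCR5+ PD-1+. The 4 groups were ZsGreen+ and ZsGreen− Tfh cells of the Peyer's patches, the lymphoid follicles of the gut wall, and ZsGreen+ and ZsGreen− Tfh cells of the spleen. Both sorts come from the same fate-mapping strain, and no group without arthritis or without the reporter was analysed here. Each group had 2 libraries, 1 from experiment 1 and 1 from experiment 2. The sources used here do not give the Cre driver, the age of the mice or the number of animals behind a library, so p-values measure the spread between these libraries, which may be technical. Libraries were made by poly(A) enrichment or by a non-directional ultra-low-input method, and which library had which is not given.

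The libraries held 10009823 to 15323743 estimated counts. The experiments stood far apart: library scaling factors (TMM) were 1.23 to 1.24 in experiment 1 and 0.656 to 0.971 in experiment 2, the lowest being the ZsGreen− spleen library. Of the 9 T and Tfh cell markers none was at 0 in a group, and their summed level was 4820 to 31300 CPM (counts scaled to library size, with the TMM factors applied). The 6 Th17 markers summed to 118 to 457 CPM in ZsGreen+ against 20 to 94.7 CPM in ZsGreen− Peyer's patch cells, and to 616 to 1680 CPM in ZsGreen+ against 21.2 to 72.2 CPM in ZsGreen− spleen cells. Markers of other cells were low: the 7 B cell genes summed to at most 60 CPM, the 7 myeloid genes to at most 33.7 CPM and the 6 epithelial genes to at most 16.5 CPM. The 4 stromal genes in the tables summed to 48.9 to 159 CPM. Pecam1 alone had 47.7 to 156 CPM of these, and Col1a1 at most 5.06 CPM. Ebf1 and Ms4a1 were at 0 in ZsGreen− spleen cells, and the epithelial Cdh1, Krt8 and Krt19 in both spleen groups. In bulk libraries, fewer cells of a type and less RNA per cell cannot be told apart.

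In the spleen, the sterol enzymes Mvd, Idi1, Fdft1, Sqle, Cyp51 and Hsd17b7 rose in ZsGreen+ relative to ZsGreen− cells, while the fatty acid genes that passed the test split both ways. Of the 18 sterol enzymes, 6 rose and 0 fell at an adjusted p under 0.05 (edgeR quasi-likelihood F test with experiment as a term, Benjamini-Hochberg adjustment over all genes tested), where 4.53% of all genes tested rose and 4.09% fell (8.62% in either direction). At an unadjusted p under 0.05, which 21.9% of all genes reached in either direction, 12 of the 18 were higher and 0 lower, and DESeq2 also called 6 higher and 0 lower. By the study's own rule for a signature gene (fold change of 1.5 or more, unadjusted p under 0.05), 10 of the 37 members were higher and 3 lower, among them 8 sterol enzymes higher and 0 lower, beside 6.4% and 7.47% of all genes tested. The median log2 fold change of the 18 was 0.54, beside -0.03 over all genes tested. In 14 of the 18 the ZsGreen+ library was above the ZsGreen− library in both experiments, which held for 31.7% of all genes tested, and in 3 it was below in both, which held for 34.9%.

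The count of 6 changed with the spleen libraries. It was 0 without the ZsGreen− library of experiment 2, the one with the lowest scaling factor, 1 without the ZsGreen+ library of experiment 1, 3 without the ZsGreen+ library of experiment 2 and 5 without the ZsGreen− library of experiment 1; leaving out a Peyer's patch library gave 5 to 7. The direction moved less: 14, 14, 14 and 15 of the 18 values were positive in the fits without a spleen library, with medians of 0.42, 0.45, 0.63 and 0.55. Without the experiment term edgeR called 0 of the 37 members, and 0 of all genes tested, in this and every other contrast, with 5 members at an unadjusted p under 0.05 in the spleen sort and a sterol median of 0.52.

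Mvd (chr8:123160340-123170162 on mm39, minus strand), the decarboxylase that makes isopentenyl diphosphate, had 18.4 and 26.9 CPM in ZsGreen+ spleen cells against 10.3 and 8.89 CPM in ZsGreen− spleen cells (experiment 1, then experiment 2, here and below). It rose by 1.17 ± 0.24 on the log2 scale (SE; adjusted p = 0.0112). Idi1, which isomerises that product, had 31.5 and 47.8 CPM in ZsGreen+ against 17.8 and 26.7 CPM in ZsGreen− spleen cells, a log2 fold change of 0.83 ± 0.21 (adjusted p = 0.0323). For both genes, each ZsGreen+ library lay above both ZsGreen− libraries.

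Fdft1 (squalene synthase) and Sqle (squalene epoxidase), the enzymes that commit isoprenoids to sterols, followed. Sqle (chr15:59186926-59203042, plus strand) had 38.7 and 44.7 CPM in ZsGreen+ against 18.7 and 21.0 CPM in ZsGreen− spleen cells, close to a doubling in each experiment, and rose by 1.06 ± 0.18 on the log2 scale (adjusted p = 0.00441). Fdft1 had 35.8 and 78.0 CPM in ZsGreen+ against 22.6 and 50.3 CPM in ZsGreen− spleen cells and rose by 0.65 ± 0.15 (adjusted p = 0.0215), with overlap between the groups across experiments but the same order within each. Of the Fdft1 exon bases, 18.3% are shared with Ctsb on the other strand, which has a mean count of 13000 beside 600 for Fdft1, and the non-directional libraries cannot tell the reads there apart.

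Past lanosterol, Cyp51 and Hsd17b7 also passed the test. Cyp51, the lanosterol demethylase, had 61.4 and 90.4 CPM in ZsGreen+ against 40.1 and 51.8 CPM in ZsGreen− spleen cells (log2 fold change 0.70 ± 0.13, adjusted p = 0.00693). Hsd17b7, the ketosteroid reductase of the pathway, had 22.2 and 24.3 CPM in ZsGreen+ against 9.63 and 12.0 CPM in ZsGreen− spleen cells (1.11 ± 0.22, adjusted p = 0.00904). Both genes had no overlap between the sorts.

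The other 12 sterol enzymes did not pass. Hmgcs1, the HMG-CoA synthase at the head of the mevalonate route, had 66.2 and 45.4 CPM in ZsGreen+ against 44.0 and 29.4 CPM in ZsGreen− spleen cells, with a log2 fold change of 0.60 ± 0.18 and an adjusted p of 0.0677. Pmvk, Lss and Nsdhl had log2 fold changes of 0.58, 0.63 and 0.50, and Msmo1 one of 0.37. Fdps, the farnesyl diphosphate synthase, had 28.3 and 69.6 CPM in ZsGreen+ against 22.1 and 54.0 CPM in ZsGreen− spleen cells (0.36 ± 0.20, adjusted p = 0.332). Of the Fdps exon bases, 26.7% are shared with a gene on the same strand that is not among those counted in both experiments. Ebp and Sc5d had log2 fold changes of 0.34 and 0.30. The 4 enzymes with a negative value were Acat2 (-0.06), Dhcr7 (-0.26), Mvk (-0.33) and Tm7sf2 (-0.46). Tm7sf2, a sterol reductase, had 9.16 and 6.77 CPM in ZsGreen+ against 10.6 and 11.5 CPM in ZsGreen− spleen cells (adjusted p = 0.371), and 12.1% of its exon bases are shared with Vps51.

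**Figure D1:**
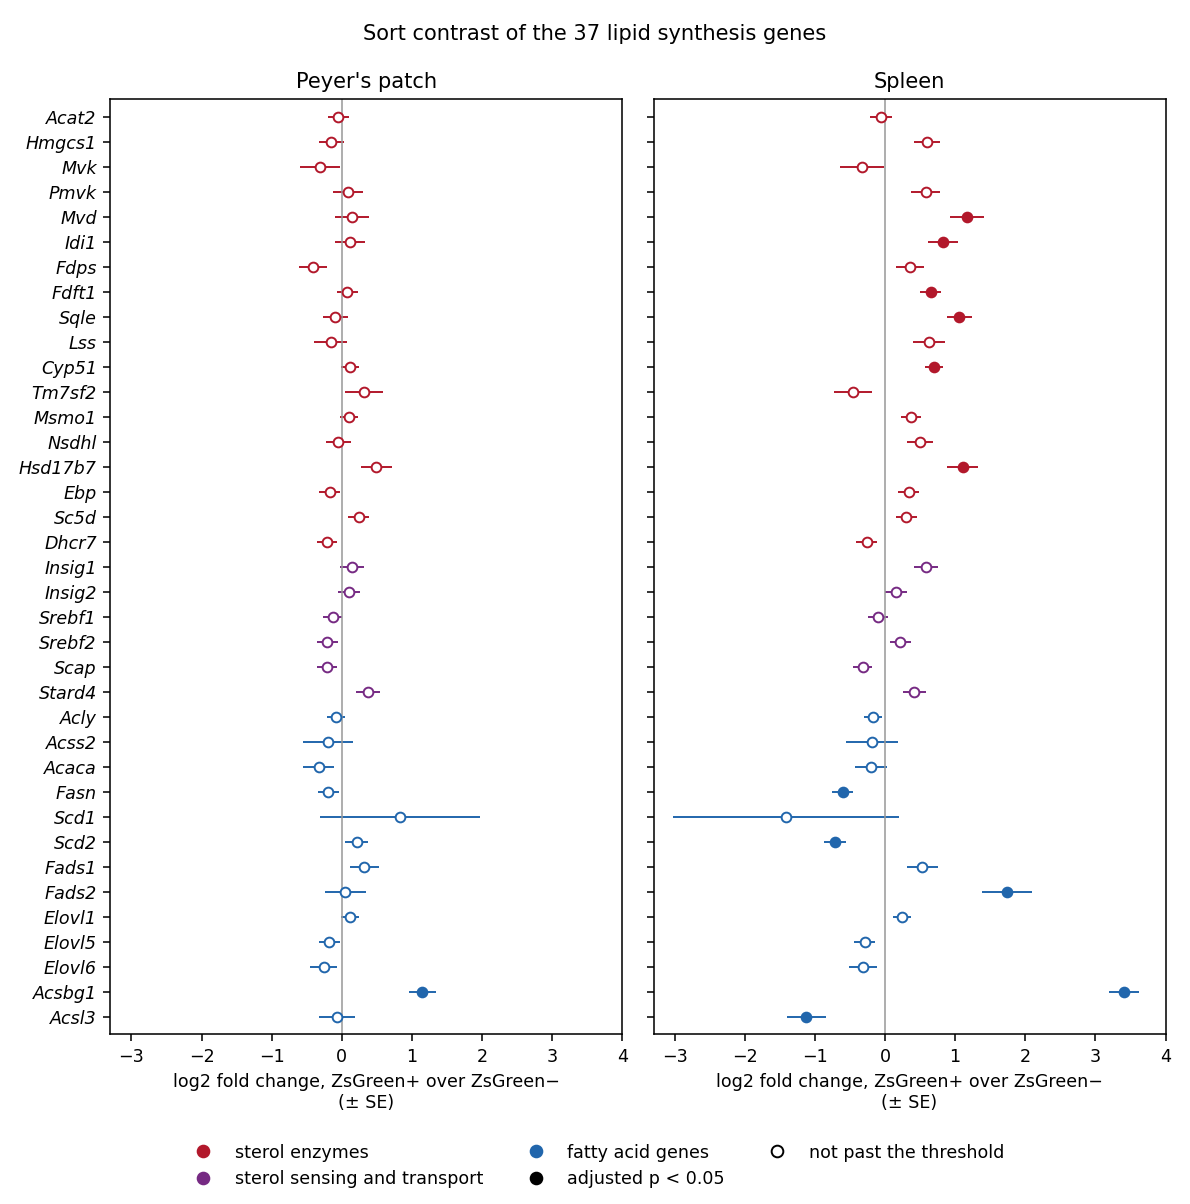
Log2 fold change of ZsGreen+ over ZsGreen− cells (x axis, point with SE) for each of the 37 genes (y axis) in Peyer's patch (left) and spleen (right), coloured by branch; filled points passed an adjusted p of 0.05. In spleen 14 of 18 sterol enzymes lie to the right of 0 with 6 filled, and in Peyer's patch the sterol enzymes lie on both sides of 0 and Acsbg1 is the only filled point.

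Proliferation markers moved with the same contrast. In spleen 13 of 15 were higher in ZsGreen+ cells (median log2 fold change 1.38), and they summed to 2050 and 3200 CPM in ZsGreen+ against 1030 and 1190 CPM in ZsGreen− cells. Of the 9 T and Tfh markers, Cxcr5 and Cd3e passed and were lower in ZsGreen+ spleen cells, with log2 fold changes of -1.69 and -0.83. DESeq2 called 4 of the 9 lower. Bcl6 (-0.92 ± 0.27, edgeR adjusted p = 0.0921) and Pdcd1 (-0.88 ± 0.33, edgeR adjusted p = 0.16) did not pass in edgeR, and 2 of the 9 values were positive. The B cell genes summed to 17.6 and 16.9 CPM in ZsGreen+ against 4.28 and 1.99 CPM in ZsGreen− spleen cells, and of the 6 tested 1 rose, Blk, with 14.3 and 12.9 CPM in ZsGreen+ against 0.428 and 0.767 CPM in ZsGreen− spleen cells (4.63 ± 0.57, adjusted p = 0.000647). Pax5, which defines B cells, had 1.28 and 0.0857 CPM in ZsGreen+ against 3.53 and 0.46 CPM in ZsGreen− spleen cells. The part of any of these in the sterol and fatty acid results was not tested.

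The promoters of 5 sterol enzymes and of Acsbg1 are shown. Mvd, Idi1, Cyp51, Hsd17b7 and Acsbg1 were among the 8 members that rose in the spleen sort. Hmgcs1 was added as the head of the mevalonate route. SREBP is known to act together with the CCAAT-binding factor NF-Y at sterol genes. Each stretch runs 5′ to 3′ from 250 bases before to 50 bases after the annotated start, is taken from RefSeq on build GRCm38.p6 (the deposited counts are on mm39), and capitals mark CCAAT on either strand (CCAAT or ATTGG) and the sterol element TCACNCCAC on either strand.
Mvd, chr8:122443373-122443672, minus strand: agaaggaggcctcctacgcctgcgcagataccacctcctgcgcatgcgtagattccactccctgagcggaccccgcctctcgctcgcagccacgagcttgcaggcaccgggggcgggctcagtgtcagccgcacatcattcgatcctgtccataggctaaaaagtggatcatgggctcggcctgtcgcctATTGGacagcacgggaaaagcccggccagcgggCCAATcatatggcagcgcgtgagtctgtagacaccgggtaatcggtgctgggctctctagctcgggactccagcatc
Idi1, chr13:8885356-8885655, plus strand: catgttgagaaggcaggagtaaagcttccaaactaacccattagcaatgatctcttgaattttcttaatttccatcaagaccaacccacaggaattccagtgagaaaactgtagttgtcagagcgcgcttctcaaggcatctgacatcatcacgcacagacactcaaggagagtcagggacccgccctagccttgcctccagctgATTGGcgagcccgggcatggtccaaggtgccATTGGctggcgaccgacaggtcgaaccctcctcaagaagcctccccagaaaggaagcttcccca
Cyp51, chr5:4104648-4104947, minus strand: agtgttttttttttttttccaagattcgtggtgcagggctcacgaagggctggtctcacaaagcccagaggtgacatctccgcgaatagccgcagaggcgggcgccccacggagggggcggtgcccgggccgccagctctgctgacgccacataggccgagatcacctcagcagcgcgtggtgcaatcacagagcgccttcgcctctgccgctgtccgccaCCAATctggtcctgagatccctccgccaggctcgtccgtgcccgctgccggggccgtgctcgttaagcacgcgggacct
Hsd17b7, chr1:169969156-169969455, minus strand: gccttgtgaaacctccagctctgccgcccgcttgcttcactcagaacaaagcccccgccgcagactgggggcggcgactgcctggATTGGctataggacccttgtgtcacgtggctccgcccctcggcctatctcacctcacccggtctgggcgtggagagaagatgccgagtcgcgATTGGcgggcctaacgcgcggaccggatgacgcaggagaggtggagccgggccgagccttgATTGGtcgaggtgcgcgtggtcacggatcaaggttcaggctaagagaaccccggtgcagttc
Hmgcs1, chr13:119690101-119690400, plus strand: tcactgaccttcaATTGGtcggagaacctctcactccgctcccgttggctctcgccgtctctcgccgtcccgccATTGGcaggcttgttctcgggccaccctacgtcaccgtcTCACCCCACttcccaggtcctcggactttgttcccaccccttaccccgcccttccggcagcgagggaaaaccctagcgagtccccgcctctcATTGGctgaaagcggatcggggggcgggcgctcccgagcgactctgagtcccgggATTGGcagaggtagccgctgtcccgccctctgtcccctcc
Acsbg1, chr9:54661836-54662135, minus strand: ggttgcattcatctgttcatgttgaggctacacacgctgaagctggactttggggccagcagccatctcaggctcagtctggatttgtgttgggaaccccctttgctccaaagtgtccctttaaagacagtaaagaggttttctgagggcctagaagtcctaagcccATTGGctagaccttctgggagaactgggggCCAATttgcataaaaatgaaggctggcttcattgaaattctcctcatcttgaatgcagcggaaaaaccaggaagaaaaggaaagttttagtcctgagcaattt
CCAAT occurred 2 times in the Mvd, Idi1 and Acsbg1 stretches, 1 time in Cyp51, 3 times in Hsd17b7 and 4 times in Hmgcs1, and none of these overlapped the single TCACNCCAC, in Hmgcs1. Promoters were matched for 30 of the 37 genes, but not for Sqle and Fdft1, which also rose in the spleen sort. Fads2 rose there too, and its promoter, not shown, had no CCAAT. Fasn and Acsl3, which fell there, had CCAAT. At least 1 CCAAT was present in 25 of these 30 (83.3%), in 14 of 15 sterol enzymes (93.3%) and in 7 of 10 fatty acid genes (70.0%), beside 43.3% of the 9790 tested genes with a promoter of the same length. TCACNCCAC was present in 1 of the 30 (3.33%) beside 1.31% of tested genes, the E-box CACGTG in 6 (20%) beside 11.8%, and the GC box GGGCGG on either strand in 24 (80.0%) beside 67.8%. The matches describe letters in a window, and no binding was measured.

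The regulators of the sterol branch did not pass the test in the spleen sort: edgeR called 0 of the 6, with 3 at an unadjusted p under 0.05, and DESeq2 called 1, Insig1. Over all genes tested edgeR called 8.62% in either direction, and 21.9% had an unadjusted p under 0.05. Insig1, a feedback target that retains SCAP, had 53.0 and 76.0 CPM in ZsGreen+ against 35.5 and 51.2 CPM in ZsGreen− spleen cells (log2 fold change 0.58 ± 0.17, adjusted p = 0.0556). Its partner gene Insig2 had 20.1 and 39.1 CPM in ZsGreen+ against 18.6 and 33.7 CPM in ZsGreen− spleen cells (0.16 ± 0.16). Within each experiment the Insig1 difference was 0.58 and 0.57 on the log2 scale, as even as that of Sqle.

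The transcripts of the SREBPs themselves differed little between the sorts. Srebf2 had 350 and 196 CPM in ZsGreen+ against 330 and 152 CPM in ZsGreen− spleen cells (log2 fold change 0.22 ± 0.15, adjusted p = 0.438). Srebf1 had 106 and 37.4 CPM in ZsGreen+ against 127 and 34.8 CPM in ZsGreen− spleen cells (-0.10 ± 0.14, adjusted p = 0.749), and its sign turned to 0.08 without the ZsGreen− spleen library of experiment 1. SREBP activity is set by cleavage of the protein, which these libraries do not measure. Scap, the escort, had 71.9 and 17.7 CPM in ZsGreen+ against 83.2 and 24.5 CPM in ZsGreen− spleen cells (-0.32 ± 0.14, adjusted p = 0.207). Stard4, which carries cholesterol between membranes, had 61.8 and 48.6 CPM in ZsGreen+ against 48.3 and 35.0 CPM in ZsGreen− spleen cells (0.42 ± 0.17, adjusted p = 0.176).

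The fatty acid branch had no common direction in the spleen sort. Of its 13 genes, 2 rose (Acsbg1 and Fads2) and 3 fell (Fasn, Scd2 and Acsl3), beside 4.53% and 4.09% of all genes tested. The median log2 fold change of the 13 was -0.20, beside -0.03 over all genes tested. Acsbg1 and Acsl3 activate existing long-chain fatty acids to acyl-CoA and Fads2 desaturates polyunsaturated ones, so none of these 3 makes fatty acids from acetyl-CoA. Acly, which makes cytosolic acetyl-CoA from citrate, had 237 and 95.0 CPM in ZsGreen+ against 250 and 115 CPM in ZsGreen− spleen cells (-0.17 ± 0.13, adjusted p = 0.501). Acaca, the carboxylase that makes malonyl-CoA, had 19.8 and 3.69 CPM in ZsGreen+ against 23.6 and 3.99 CPM in ZsGreen− spleen cells (-0.20 ± 0.23, adjusted p = 0.674).

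Fasn, the fatty acid synthase, had 170 and 17.1 CPM in ZsGreen+ against 294 and 21.6 CPM in ZsGreen− spleen cells. It fell by 0.60 ± 0.15 on the log2 scale (adjusted p = 0.0303), but the experiments lie so far apart that the groups overlap, and only the order within each experiment is shared. Scd2 (chr19:44282113-44295304, plus strand), a stearoyl-CoA desaturase, had 180 and 30.7 CPM in ZsGreen+ against 247 and 61.5 CPM in ZsGreen− spleen cells and fell by 0.71 ± 0.16 (adjusted p = 0.0186). Scd1, its better-known relative in liver and fat, was near the floor, with 11 and 0 counts in ZsGreen+ and 10 and 4 counts in ZsGreen− spleen cells, so its fitted log2 fold change, -1.41 ± 1.61 (adjusted p = 0.678), rests on few reads. Acsl3 had 3.04 and 8.31 CPM in ZsGreen+ against 8.29 and 15.2 CPM in ZsGreen− spleen cells and fell by 1.12 ± 0.28 (adjusted p = 0.0286).

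Acsbg1 (chr9:54512161-54569155, minus strand) moved by more than any other member. It had 103 and 127 CPM in ZsGreen+ against 10.3 and 11.5 CPM in ZsGreen− spleen cells, a 10.6-fold rise (log2 fold change 3.41 ± 0.21, adjusted p = 6.46e-06), and the adjusted p was at most 3.3e-05 whichever library was left out. Fads2 (chr19:10040129-10079111, minus strand) had 4.69 and 3.34 CPM in ZsGreen+ against 1.12 and 1.38 CPM in ZsGreen− spleen cells, from 88 and 39 counts against 21 and 9 counts. It rose by 1.74 ± 0.36 (adjusted p = 0.0128). Each gene kept its groups apart in both experiments.

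**Figure D2:**
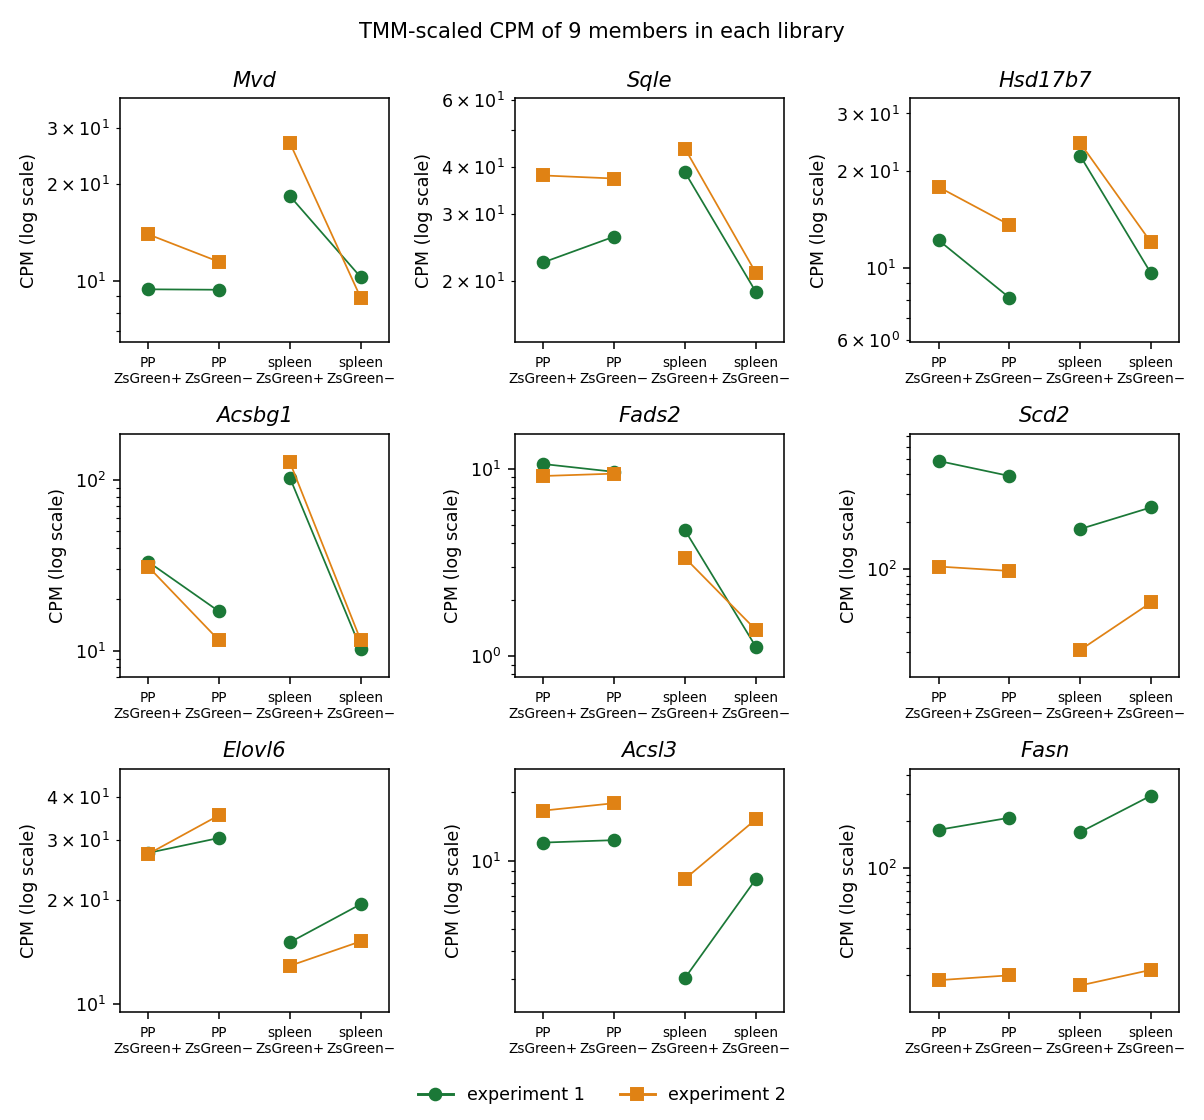
CPM on TMM-scaled library sizes (y axis, log scale) of 9 members in the 8 libraries (x axis, group), with a line joining ZsGreen+ to ZsGreen− libraries of the same tissue and experiment. On both spleen lines the ZsGreen+ point lies above the ZsGreen− point for Mvd, Sqle, Hsd17b7, Acsbg1 and Fads2 and below it for Scd2, Elovl6, Acsl3 and Fasn, and Fasn and Scd2 show the wide gap between experiments.

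In the Peyer's patches the same sort left the lipid genes almost level. Of the 37 genes, 1 rose (Acsbg1) and 0 fell, where 0.437% of all genes tested were called (0.284% higher and 0.153% lower). At an unadjusted p under 0.05 the count was 2 of 37, beside 8.13% of all genes, and DESeq2 called 1. The study's own rule also gave 1 higher and 0 lower, beside 2.64% and 1.95% of all genes tested. None of the 18 sterol enzymes passed in edgeR or DESeq2, 1 had an unadjusted p under 0.05 in edgeR (Hsd17b7) and 0 in DESeq2, 9 values were positive, and the median log2 fold change was 0.02. Of these 18, 4 were higher and 5 lower in ZsGreen+ cells in both experiments, beside 27.1% higher and 26.2% lower over all genes tested.

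Sqle had 22.4 and 38.0 CPM in ZsGreen+ against 26.2 and 37.3 CPM in ZsGreen− Peyer's patch cells (log2 fold change -0.09 ± 0.18). Mvd had 9.45 and 14 CPM in ZsGreen+ against 9.42 and 11.5 CPM in ZsGreen− cells there (0.15 ± 0.24). The groups overlapped for both. Hsd17b7 had the highest sterol value, with 12.2 and 17.8 CPM in ZsGreen+ against 8.11 and 13.6 CPM in ZsGreen− cells (0.49 ± 0.22, adjusted p = 0.609), and Fdps the lowest, with 20.8 and 82.2 CPM in ZsGreen+ against 39.1 and 79.8 CPM in ZsGreen− cells (-0.41 ± 0.20, adjusted p = 0.659). The Fdps value came from experiment 1 alone (-0.91, against 0.04 in experiment 2).

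Among the regulators in Peyer's patch, edgeR and DESeq2 called 0 of 6 and neither had one at an unadjusted p under 0.05. Stard4 had the highest value, with 65.2 and 34.6 CPM in ZsGreen+ against 40.8 and 34.2 CPM in ZsGreen− cells (0.37 ± 0.17, adjusted p = 0.615). Scap and Srebf2 shared the lowest, -0.21. The 15 proliferation markers had positive values in the Peyer's patch sort (median log2 fold change 0.56), but 0 passed the adjusted threshold in edgeR or DESeq2, with 11 and 10 at an unadjusted p under 0.05, and their sums were 727 and 1490 CPM in ZsGreen+ against 566 and 891 CPM in ZsGreen− cells. The test of the difference from spleen also called 0 of the 15 in either tool, with 7 and 8 at an unadjusted p under 0.05.

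Acsbg1 had 33.2 and 31.1 CPM in ZsGreen+ against 17 and 11.5 CPM in ZsGreen− Peyer's patch cells, without overlap. It rose by 1.15 ± 0.19 on the log2 scale (adjusted p = 0.0268). That call was lost without any of the 4 Peyer's patch libraries, with an adjusted p of up to 0.195.

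The difference between the tissues in the sort contrast was tested as an interaction. Of the 37 genes 1 passed, Acsbg1, beside 0.0971% of all genes tested, and 13 had an unadjusted p under 0.05, beside 8.48%. Acsbg1 rose less in Peyer's patch than in spleen, by -2.26 ± 0.28 on the log2 scale (adjusted p = 0.0172), a call lost without either Peyer's patch library of experiment 1 (adjusted p up to 0.1). DESeq2 called 3 members, adding Sqle and Scd2. The sterol enzymes had a median interaction of -0.56 beside 0.01 over all genes tested, with 14 of 18 values negative, but edgeR called 0 of the 18 (9 at an unadjusted p under 0.05) and DESeq2 1. For Sqle, the nearest, the interaction was -1.15 ± 0.25 (adjusted p = 0.144). A sterol difference between the tissues was therefore not called for any single enzyme by the main test.

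The branch levels, taken as the mean log2 CPM over a branch's genes in a library, are given without a test. The sterol branch stood at 4.74 and 5.22 in ZsGreen+ against 4.30 and 4.75 in ZsGreen− spleen cells, and at 4.50 and 5.27 in ZsGreen+ against 4.56 and 5.21 in ZsGreen− Peyer's patch cells. The within-experiment difference was 0.43 and 0.48 in spleen, and -0.06 and 0.06 in Peyer's patch. ZsGreen− spleen cells were thus the lowest group of the sterol branch in both experiments. The sensing and transport genes differed by 0.11 and 0.21 in spleen and by 0.08 and -0.06 in Peyer's patch. The fatty acid branch differed by 0.14 and 0.01 between the sorts in spleen and by 0.12 and 0.10 in Peyer's patch. Those means include Acsbg1, at 3.30 and 3.45 in spleen, and the thinly counted Scd1, and the medians of the same 13 differences had the other sign in spleen, -0.26 and -0.16, and were 0.05 and 0.04 in Peyer's patch.

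**Figure D3:**
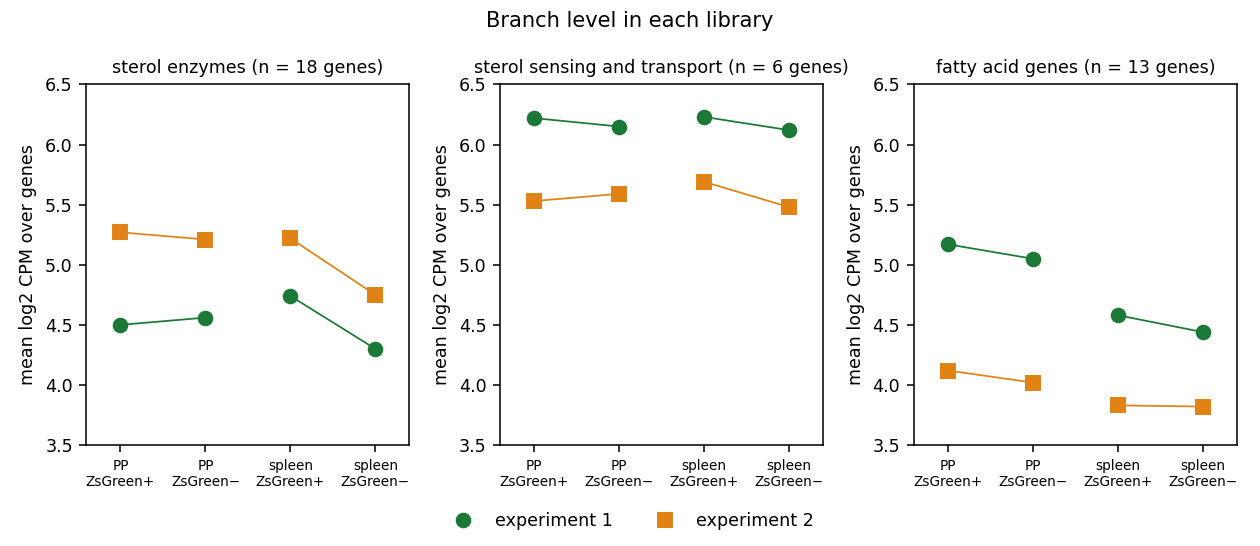
Mean log2 CPM over the genes of each branch (y axis) in each library (x axis, group), with a line joining the 2 sorts of a tissue within an experiment. On both spleen lines the sterol enzymes stand higher in ZsGreen+ cells, at 4.74 and 5.22 against 4.30 and 4.75 in ZsGreen− cells, while the fatty acid genes stand higher in Peyer's patch than in spleen and lower in experiment 2.

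Between tissues, most of the members that passed belonged to the fatty acid branch. In ZsGreen+ cells 5 of the 37 members rose in Peyer's patch relative to spleen and 3 fell, beside 5.51% and 7.17% of all genes tested (12.7% in either direction). In ZsGreen− cells 4 rose and 0 fell, beside 1.82% and 3.68% (5.49% in either direction). DESeq2 also called 4 higher and 0 lower in ZsGreen− cells, and at an unadjusted p under 0.05 edgeR had 14 of the 37, beside 17.7% of all genes, of which Acly and Fasn were the lower ones. Of the 13 fatty acid genes, 4 rose and 1 fell in ZsGreen+ cells (median log2 fold change 0.36), and 3 rose and 0 fell in ZsGreen− cells (median 0.42). The fatty acid branch level was higher in Peyer's patch by 0.59 and 0.29 in ZsGreen+ cells and by 0.61 and 0.20 in ZsGreen− cells, with medians over its genes of 0.35 and 0.34, and of 0.62 and 0.05. The ZsGreen− tissue contrast shares the ZsGreen− spleen libraries with the spleen sort contrast, and the ZsGreen+ tissue contrast shares the ZsGreen+ spleen libraries with it.

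Cell type markers moved with the tissue as well. Of the T and Tfh markers Cxcr5 rose in Peyer's patch relative to spleen in both sorts (2.47 ± 0.17, adjusted p = 1.07e-05, in ZsGreen+ cells and 1.08 ± 0.16, adjusted p = 0.00229, in ZsGreen− cells), and Bcl6 and Icos rose in ZsGreen+ cells. Pax5 rose in both sorts (4.62 ± 0.44, adjusted p = 5.55e-05, in ZsGreen+ cells and 2.78 ± 0.41, adjusted p = 0.00194, in ZsGreen− cells). The B cell genes summed to 60 and 9.38 CPM in Peyer's patch against 17.6 and 16.9 CPM in spleen among ZsGreen+ cells, where Blk fell, and to 34.6 and 5.32 CPM against 4.28 and 1.99 CPM among ZsGreen− cells. Of 6 tested myeloid genes Lyz2 rose (1.89 ± 0.29, adjusted p = 0.00122) and Itgam fell in ZsGreen+ cells, and their sums were 33.7 and 16.8 CPM in Peyer's patch against 14.7 and 5.91 CPM in spleen. The part of these markers in the tissue results was not tested.

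Scd2, Elovl6 and Fads2 rose in both sorts. Scd2 had 487 and 104 CPM in Peyer's patch against 180 and 30.7 CPM in spleen among ZsGreen+ cells, a 2.99-fold rise (log2 fold change 1.58 ± 0.16, adjusted p = 8.95e-05). Among ZsGreen− cells Scd2 had 391 and 97.5 CPM in Peyer's patch against 247 and 61.5 CPM in spleen (0.67 ± 0.16, adjusted p = 0.0314). In each experiment every Peyer's patch library was above every spleen library.

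Elovl6, the elongase of palmitate, rose by much the same in both sorts. It had 27.5 and 27.3 CPM in Peyer's patch against 15.1 and 12.9 CPM in spleen among ZsGreen+ cells (0.97 ± 0.19, adjusted p = 0.00567), and 30.4 and 35.4 CPM in Peyer's patch against 19.5 and 15.2 CPM in spleen among ZsGreen− cells (0.91 ± 0.19, adjusted p = 0.016). The tissues did not overlap. Fads2 had 10.6 and 9.15 CPM in Peyer's patch against the 4.69 and 3.34 CPM of spleen among ZsGreen+ cells (1.3 ± 0.30, adjusted p = 0.0143). Among ZsGreen− cells it had 9.63 and 9.42 CPM in Peyer's patch against 1.12 and 1.38 CPM in spleen, a 7.91-fold rise (2.98 ± 0.36, adjusted p = 0.000543). Its order was therefore both Peyer's patch groups, which overlap, then ZsGreen+ spleen, then ZsGreen− spleen.

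Acsl3 and Acsbg1 differed between tissues in opposite directions in ZsGreen+ cells. Acsl3 had 12.0 and 16.6 CPM in Peyer's patch against 3.04 and 8.31 CPM in spleen among ZsGreen+ cells (1.46 ± 0.27, adjusted p = 0.0043), and 12.3 and 17.9 CPM against 8.29 and 15.2 CPM among ZsGreen− cells (0.41 ± 0.26, adjusted p = 0.479). Acsbg1 fell by 1.84 ± 0.19 in Peyer's patch relative to spleen among ZsGreen+ cells (adjusted p = 9.21e-05), and stood at 0.42 ± 0.21 among ZsGreen− cells (adjusted p = 0.328). Across the 4 groups ZsGreen+ spleen cells were therefore the highest for Acsbg1 and the lowest for Acsl3 within each experiment. Fasn did not follow Scd2 or Elovl6: it had 176 and 18.5 CPM in Peyer's patch against 170 and 17.1 CPM in spleen among ZsGreen+ cells (0.08 ± 0.15), and 211 and 19.9 CPM against 294 and 21.6 CPM among ZsGreen− cells (-0.33 ± 0.15, adjusted p = 0.278). Acly was the lowest of the branch among ZsGreen− cells, with 193 and 93.2 CPM in Peyer's patch against 250 and 115 CPM in spleen (-0.34 ± 0.13, adjusted p = 0.202).

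The sterol enzymes gave few calls between tissues, with a median above 0 in ZsGreen− cells and below 0 in ZsGreen+ cells; the test of that difference is the interaction given above. In ZsGreen− cells 17 of 18 values were positive (median 0.39), and 13 were higher and 0 lower in both experiments, beside 31.7% and 31.0% of all genes tested, but 1 passed, Msmo1. Msmo1, the methylsterol monooxygenase, had 27.5 and 111 CPM in Peyer's patch against 19.3 and 63.9 CPM in spleen among ZsGreen− cells (0.66 ± 0.14, adjusted p = 0.0153). Among ZsGreen+ cells it had 32.6 and 108 CPM in Peyer's patch against 24.9 and 83 CPM in spleen (0.38 ± 0.14, adjusted p = 0.0889).

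In ZsGreen+ cells 5 of 18 sterol values were positive (median -0.19), and 5 were higher and 8 lower in both experiments, beside 36.6% and 34.4% of all genes tested, with 1 enzyme higher and 1 lower in Peyer's patch. Mvd fell, at 9.45 and 14 CPM in Peyer's patch against 18.4 and 26.9 CPM in spleen (-0.95 ± 0.23, adjusted p = 0.0185). Acat2, the thiolase of the first step, had 22.2 and 43.4 CPM in Peyer's patch against 15.7 and 30.1 CPM in spleen (0.51 ± 0.15, adjusted p = 0.048), a call lost whichever of the 8 libraries was left out. Tm7sf2 had 15.6 and 13.4 CPM in Peyer's patch against 9.16 and 6.77 CPM in spleen (0.85 ± 0.27, adjusted p = 0.058), the highest value of the branch. Insig1 fell, at 42.8 and 41.8 CPM in Peyer's patch against 53.0 and 76.0 CPM in spleen (-0.58 ± 0.17, adjusted p = 0.0408). Proliferation markers moved with this contrast as well, 13 of 15 lower in Peyer's patch among ZsGreen+ cells (median -1.67) and 5 of 15 among ZsGreen− cells (median -0.64), and their part was not tested.

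**Figure D4:**
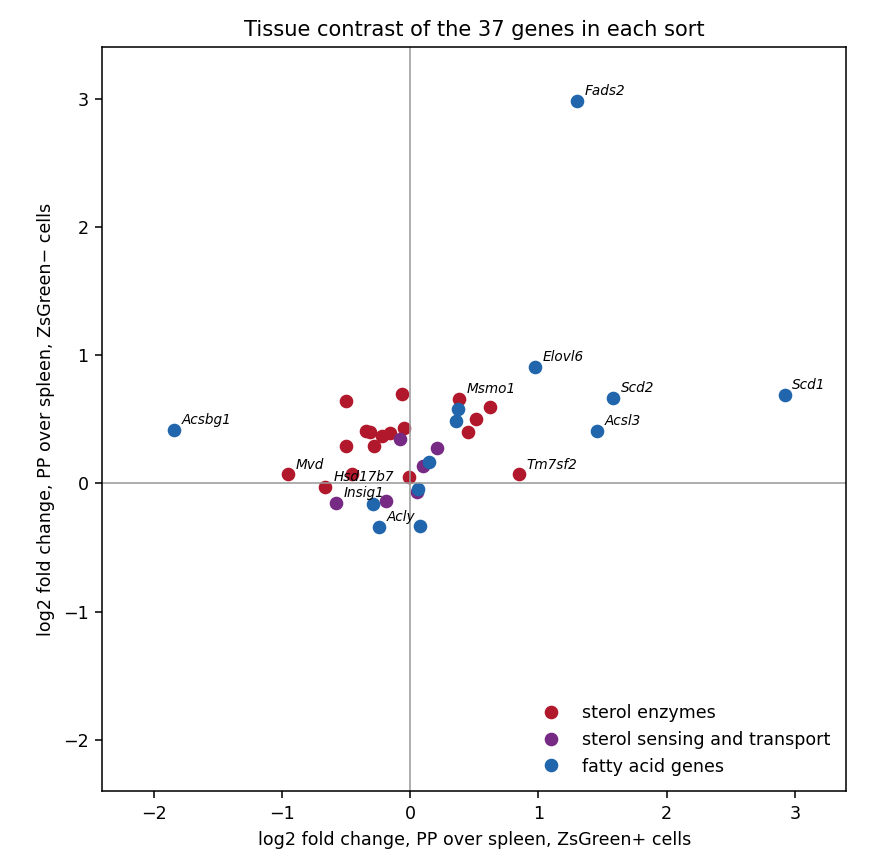
Log2 fold change of Peyer's patch over spleen for each of the 37 genes in ZsGreen+ cells (x axis) and in ZsGreen− cells (y axis), coloured by branch. Fads2, Scd2 and Elovl6 lie at the upper right, Scd1 further right at 2.92 but not past the threshold and resting on few reads in spleen, Acsbg1 at the far left, and the sterol enzymes lie mostly above 0 on the y axis and on both sides of 0 on the x axis.

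The experiments differed by more than the groups did for Fasn, Scd2 and Msmo1, among others. Taken as experiment 2 minus experiment 1 over the 4 groups, the branch level differed by 0.59 for the sterol enzymes, -0.61 for sensing and transport, and -0.86 for the fatty acid genes. Fasn stood at -3.42, Scd1 at -2.83, Acaca at -2.55 and Scd2 at -2.19, against 1.79 for Msmo1 and 1.49 for Ebp. The size moved with exon length in the GENCODE vM21 annotation: Spearman's rho was -0.65 over the 37 members and -0.41 over the 14392 tested genes with a length, as a description across genes that share libraries. Over all tested genes the median was 0.84 among those with at most 2146 exon bases and -0.89 among those with at least 6165. Which of the library methods made which experiment is not given, so method and experiment cannot be told apart, and the folds and tests compare libraries within an experiment, while statements that groups overlap or not are across both.

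**Figure D5:**
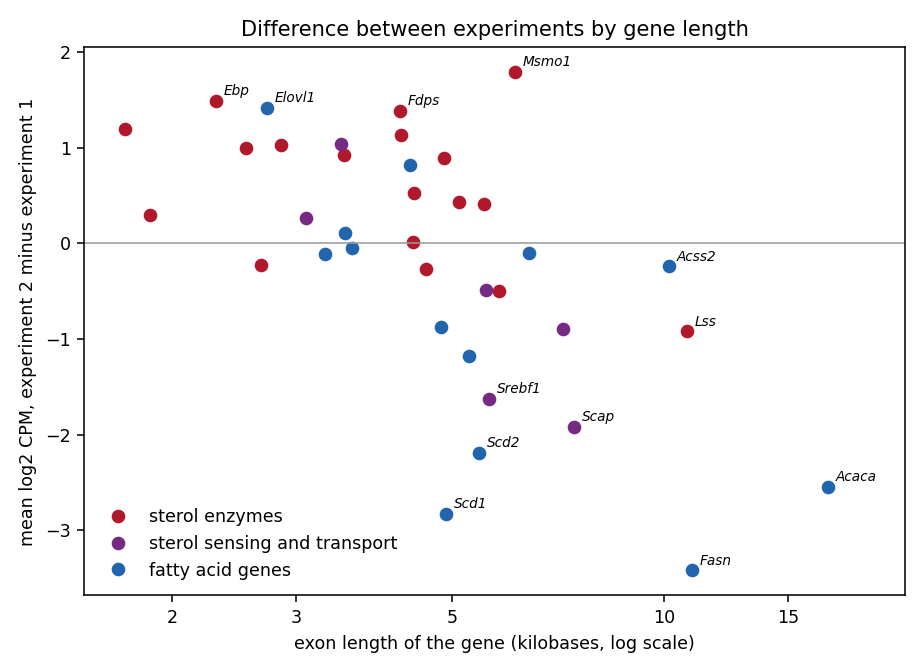
Mean log2 CPM of experiment 2 minus experiment 1 (y axis) against exon length in kilobases (x axis, log scale) for the 37 genes, coloured by branch. Fasn and Acaca, among the longest, lie at -3.42 and -2.55, and shorter genes such as Ebp and Elovl1 lie above 0.

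Genes of the same pathways outside the 37 were tested as lists of their own. Of 17 tested genes of sterol synthesis, uptake, storage and efflux, 2 rose and 1 fell in the spleen sort, beside the 4.53% and 4.09% of all genes given above, and DESeq2 called 2 higher and 3 lower. Tmem97, a sterol-regulated membrane protein, had 9.26 and 45.6 CPM in ZsGreen+ against 5.62 and 16.9 CPM in ZsGreen− spleen cells (1.08 ± 0.25, adjusted p = 0.0194). The lipoprotein receptor Lrp8 had 22.9 and 13.0 CPM in ZsGreen+ against 11.7 and 5.67 CPM in ZsGreen− spleen cells (1.04 ± 0.27, adjusted p = 0.0325). Mylip, a ligase that degrades lipoprotein receptors, had 19.0 and 7.89 CPM in ZsGreen+ against 31.9 and 18.9 CPM in ZsGreen− spleen cells and fell by 0.98 ± 0.21 (adjusted p = 0.0129).

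Of 15 tested genes of fatty acid and glycerolipid synthesis, 2 rose and 1 fell in the spleen sort, and DESeq2 also called 2 higher and 1 lower, beside the same shares of all genes. Dgat1, which makes triglyceride, rose by 1.03 ± 0.21 on the log2 scale (adjusted p = 0.0107), and Hsd17b12, a reductase of the elongation cycle, by 0.71 ± 0.13 (adjusted p = 0.00715). Hacd3, a dehydratase of that cycle, fell by 0.62 ± 0.15 in the spleen sort (adjusted p = 0.0256) and rose by 0.75 ± 0.15 in Peyer's patch relative to spleen among ZsGreen+ cells (adjusted p = 0.00654). In the Peyer's patch sort edgeR called 0 of these 17 and 0 of these 15, with 1 of each list at an unadjusted p under 0.05, and DESeq2 called 0 of either. Among ZsGreen+ cells Npc2 fell in Peyer's patch relative to spleen (-0.58 ± 0.14, adjusted p = 0.0167), while Lipa, Mbtps1 and Mylip rose.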

How the data were processed

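The deposited tables hold, for each of 8 libraries, estimated counts per gene as the authors made them. Of all values of a library, zeros included, 17.6 to 29.9% are not whole (tolerance 0.01), and they were rounded. The authors also deposited normalized values, a signal equal to the estimated counts times 1 constant per library. The submitters' processing notes name STAR, Partek, DESeq2 and the build mm39, with no role or version. Counts of genes outside the 16735 shared by both tables made up 0.0361 to 0.597% of a library.

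edgeR 4.0.16 (R 4.3.3) fitted all 8 libraries with 1 mean per group and an experiment term, TMM scaling, filterByExpr (minimum count 10, minimum total 15; 2317 genes removed) and robust quasi-likelihood F tests, two-sided, adjusted over 14418 genes, with 3 residual degrees of freedom. The labels place replicate 1 of each group in experiment 1 and replicate 2 in experiment 2, and deviations of same-numbered libraries correlated at 0.825 to 0.867 over 6 pairs of groups, so the number was used as a block. CPM use TMM-scaled library sizes, branch levels are means of log2 CPM (prior count 2), and motifs were searched on both strands. Exon lengths and overlaps come from GENCODE vM21 (GRCm38). Alternatives were DESeq2 1.42.0, limma 3.58.1 on log2(normalized value + 1), RLE scaling, no filter, a minimum count of 50, no block, and leaving out each library.

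Given by library were members past the threshold in any contrast, 8 central members fixed by role, and the highest and lowest of each branch in each sort and tissue contrast; others are given by counts and ranges. The members and lists were chosen with earlier results of these data known.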

Additional observations from a re-analysis of the deposited data

Results flagged for a closer look

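Acsbg1, an acyl-CoA synthetase, was picked out because its response to the sort differed between tissues by a test of the difference itself: the log2 fold change of ZsGreen+ over ZsGreen− cells was 1.15 in Peyer's patch and 3.41 in spleen, a difference of -2.26 ± 0.28 (SE; edgeR quasi-likelihood F test of the interaction, adjusted p = 0.0172). ZsGreen+ cells were above ZsGreen− cells in both experiments in each tissue. No explanation was tested.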

How the results depend on the processing

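Without the replicate block, edgeR called 0 members in the sort contrast of Peyer's patch, 0 in that of spleen (0 sterol enzymes higher, 0 fatty acid genes higher, 0 lower), 0 in their difference, and 0 between tissues in either sort (0 higher, 0 lower); unadjusted p under 0.05 then held for 1, 5, 2, 2 and 3 members, and 0 of all 14418 genes passed in any contrast. The sterol values kept a median of 0.52 in the spleen sort. DESeq2 called 3 members in the difference between tissues. Of the 25 calls of a member in a contrast, 24 held with DESeq2, RLE scaling, limma on the normalized values or no filter, and 25 with the minimum count of 50; the exception was Acat2. With 1 library left out, the lone library of its group was taken to vary like the others, and calls ranged over 0 to 1 (Peyer's patch sort), 3 to 13 (spleen sort; sterol enzymes higher 0 to 7, fatty acid genes higher 1 to 2 and lower 1 to 3), 0 to 3 (difference between tissues), 1 to 6 (tissue, ZsGreen−) and 3 to 8 (tissue, ZsGreen+; higher 2 to 5, lower 1 to 3). Acsbg1 in the spleen sort, Fads2 between tissues in ZsGreen− cells, and Scd2 and Acsbg1 between tissues in ZsGreen+ cells held in each of these 8 fits. In the spleen sort Srebf1 ranged over -0.24 to 0.08 and Scd1 over -6.4 to 0.13 on the log2 scale, changing sign without 1 ZsGreen− spleen library each; Scd1 rests on at most 11 counts there and was called lower (adjusted p = 0.0269) without the ZsGreen− spleen library of experiment 1. Branch differences moved by less than the spread between libraries with RLE scaling or a prior count of 0.5. That does not show that small ones kept their sign, such as 0.01 for fatty acid genes in the spleen sort of experiment 2. The causes were not tested. With 2 libraries a group and 3 residual degrees of freedom, a difference that missed the threshold is not shown to be absent.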

Other observations

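Fatty acid oxidation, the breakdown route, had few calls. In ZsGreen+ cells edgeR called 0 of its genes higher and 3 lower in Peyer's patch than in spleen, beside 5.51% and 7.17% of all genes tested. In ZsGreen− cells it called 0 higher and 1 lower, beside 1.82% and 3.68%. Of its 10 tested genes, edgeR and DESeq2 called 0 in the sort contrast of Peyer's patch (2 at an unadjusted p under 0.05 in each tool) and 0 in that of spleen (0 unadjusted in each). Over all genes tested edgeR called 0.437% and 8.62% in these 2 contrasts. Cpt1a, the gate for fatty acids into mitochondria, was lower in Peyer's patch than in spleen in both sorts: it had 97.4 and 36.2 CPM in Peyer's patch against 130 and 59.1 CPM in spleen among ZsGreen+ cells (log2 fold change -0.56 ± 0.13, edgeR adjusted p = 0.0166), and 107 and 39.8 CPM against 157 and 69.1 CPM among ZsGreen− cells (-0.67 ± 0.13, adjusted p = 0.013). Among ZsGreen+ cells Acadl, a dehydrogenase of the cycle (-0.69 ± 0.14, adjusted p = 0.00803), and the carnitine carrier Slc25a20 (-0.50 ± 0.15, adjusted p = 0.0458) were lower in Peyer's patch as well, while the median of the 10 genes was 0.05.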
